A study of Mus musculus with 10 samples.

Results

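The comparison set the mature miRNAs of the mouse heart at embryonic day 17.5 (E17.5), shortly before birth, against those at embryonic day 10.5 (E10.5), when the heart tube has looped and the chambers begin to form. A miRNA was included where at least 1 of both small RNA libraries had 10 counts, which 761 of the 1908 listed mature miRNAs met, and the difference was taken as E17.5 minus E10.5. The libraries were made from hearts of C57BL/6 mice with no genotype or treatment given, and the E14.5 heart library of the same series is shown as the point between them. Heart tissue is the labelled source although the labelled cell type is the cardiomyocyte, and the number of embryos per library is not stated.

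There was 1 library per stage. No difference was therefore tested, and "higher" and "lower" describe these libraries and not the spread between embryos. Totals were 10479309 counts at E10.5, 11526413 at E14.5 and 12848794 at E17.5, and values are given as counts per 1000000 counts of the library (CPM). Ratios carry exact Clopper-Pearson 95% intervals, which cover counting error only, as does the floor of 3 counts (0.286, 0.260 and 0.233 CPM in stage order).

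A miRNA is a short RNA that guides Argonaute proteins to messenger RNAs, mainly through its seed, bases 2 to 8 from the 5′ end. miRNAs with the same seed form a family with overlapping targets. In embryos the miR-302 and miR-290 clusters mark pluripotent and early cells, the miR-17-92 clusters mark proliferating cells, and the let-7 family accumulates as cells differentiate. The heart also has muscle miRNAs (miR-1, miR-133, miR-208, miR-499), several of which lie in introns of myosin heavy chain genes.

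The sequences that carry the largest groups of differences are given here from RefSeq (GRCm38.p6), 5′ to 3′, with the seed in capitals. The let-7 family is shown because it held most of the gain.
let-7a-5p: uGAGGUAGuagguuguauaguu
let-7b-5p: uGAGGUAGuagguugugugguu
let-7c-5p: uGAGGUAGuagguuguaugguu
let-7d-5p: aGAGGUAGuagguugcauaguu
let-7e-5p: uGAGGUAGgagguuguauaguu
let-7f-5p: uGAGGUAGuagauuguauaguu
let-7g-5p: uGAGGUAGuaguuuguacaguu
let-7i-5p: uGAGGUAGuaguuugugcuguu
let-7j: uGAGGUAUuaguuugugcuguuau
The next group shares the 6 letters AAGUGC inside the seed at 1 of 2 offsets, and joins members of the pluripotency clusters with members of the miR-17-92 clusters.
miR-302b-3p: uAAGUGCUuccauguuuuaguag
miR-302d-3p: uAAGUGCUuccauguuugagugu
miR-294-3p: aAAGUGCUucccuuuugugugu
miR-17-5p: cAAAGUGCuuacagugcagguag
miR-20a-5p: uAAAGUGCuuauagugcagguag
miR-20b-5p: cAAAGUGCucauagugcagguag
miR-93-5p: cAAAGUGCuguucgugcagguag
miR-106b-5p: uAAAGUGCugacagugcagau
The miR-34 and miR-449 family and the miR-25 and miR-92 family each hold members with the same seed and unlike differences.
miR-449a-5p: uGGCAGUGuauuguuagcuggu
miR-449c-5p: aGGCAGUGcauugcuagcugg
miR-34b-5p: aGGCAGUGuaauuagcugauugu
miR-92a-3p: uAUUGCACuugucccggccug
miR-92b-3p: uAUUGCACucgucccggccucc
miR-25-3p: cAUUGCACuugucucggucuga
miR-363-3p: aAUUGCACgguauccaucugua
Imprinted and Hox-embedded miRNAs with large lower values, and miR-540-3p, which the series title names, follow.
miR-540-3p: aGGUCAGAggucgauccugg
miR-323-3p: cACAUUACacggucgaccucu
miR-410-5p: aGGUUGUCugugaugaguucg
miR-758-3p: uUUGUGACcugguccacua
miR-335-3p: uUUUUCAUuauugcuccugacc
miR-196a-5p: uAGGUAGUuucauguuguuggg
miR-196b-5p: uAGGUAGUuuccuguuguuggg
miR-615-3p: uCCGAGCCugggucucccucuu
The last are 4 muscle miRNAs, of which miR-208a-3p and miR-208b-3p share a seed, and the miR-183 cluster.
miR-208a-3p: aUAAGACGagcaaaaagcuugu
miR-208b-3p: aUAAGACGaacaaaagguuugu
miR-499-5p: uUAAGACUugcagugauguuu
miR-206-3p: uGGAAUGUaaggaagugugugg
miR-183-5p: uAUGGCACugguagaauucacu
miR-182-5p: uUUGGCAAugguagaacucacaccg
miR-96-5p: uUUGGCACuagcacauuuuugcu

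The E17.5 heart had a narrower miRNA population than the E10.5 heart, with more of the counts in fewer miRNAs. The 10 most abundant miRNAs held 46.7% of counts at E10.5, 54.4% at E14.5 and 58.0% at E17.5, and 90% of counts needed 70, 54 and 47 miRNAs. The number with at least 10 counts was 743, 648 and 626. Of the 761 compared, 608 reached 10 counts at both stages, 135 at E10.5 alone and 18 at E17.5 alone. A miRNA that passed at 1 stage alone tends to differ by the rule itself, so members with under 10 counts at E17.5 or at E10.5 are counted below for the lists that hold them. miR-143-3p, of smooth muscle and fibroblasts, was the most abundant at each stage, with 125040.0 CPM at E10.5, 108145 at E14.5 and 109602 at E17.5.

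On the log2(CPM + 1) scale, 20 of the 761 miRNAs were at least 2-fold higher at E17.5 (2.63%) and 308 at least 2-fold lower (40.5%), and the median difference was -0.81. At a 4-fold limit there were 8 higher and 75 lower. Among the 608 with at least 10 counts at both stages, 17 were higher and 248 lower, and the median was -0.77. Scaling by the median ratio of each miRNA to its geometric mean over the series' 5 small RNA libraries added 0.95 to the differences of abundant miRNAs, and then 93 were higher (12.2%), 85 lower (11.2%) and the median was -0.10. The excess of 2-fold lower over 2-fold higher values was thus present in CPM and not under the median ratio. That scaling brings the typical miRNA close to no change by design, so the loss of the excess is no finding. By sign, 427 differences lay below 0 and 334 above 0 under the median ratio. All 20 higher miRNAs in CPM were also higher under the median ratio. All 85 lower miRNAs under the median ratio were also lower in CPM. Because this scaling raised the differences of abundant miRNAs, both statements follow largely from arithmetic and are no added support. It did not raise every rare one, as the median of 3 miR-449 arms was 2.94 in CPM and 2.92 under it. Below, ratios of single miRNAs are in CPM, and the median-ratio value is given beside each list's median and wherever the sign of a named difference turned under it. Counts of lower or higher members in CPM stand against the 40.5% and 2.63% of all miRNAs. The pseudocount of 1 understates differences of rare miRNAs.

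Lower values occurred at each level of abundance. Of the 369 miRNAs with a mean below 10 CPM, 34.7% were at least 2-fold lower, of the 171 from 10 to 100 CPM 59.6%, and of the 131 from 100 to 1000 CPM 40.5%. Of the 66 from 1000 to 10000 CPM, 33.3% were lower, and of the 24 at 10000 CPM or more 12.5%. These 24 held 70.2% of counts at E10.5 and 77.4% at E17.5. In all, 259232 CPM (25.9% of the library) was gained by 127 miRNAs and lost by 634, and 5 miRNAs made up 66.9% of the gain. miRNAs named let-7 or miR-98, both arms included, gained 188351 CPM. The members closest to the inclusion limit were close to those left out, with a median difference of -0.58 for the 21 miRNAs whose higher count was 10 and -0.42 for the 22 whose higher count was 9.

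**Figure D1:**
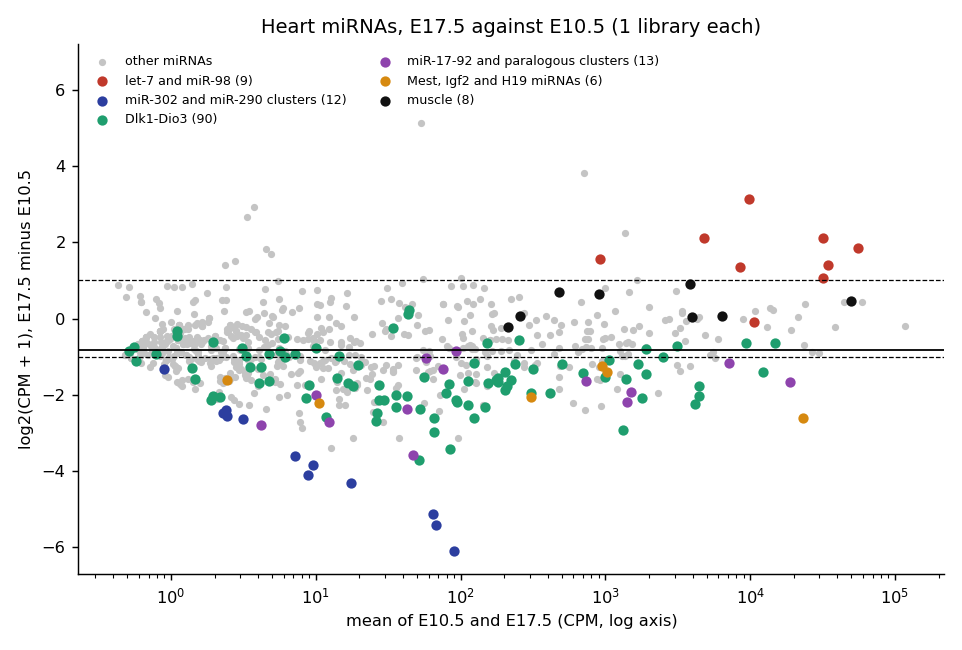
Each point is 1 of the 761 miRNAs, with its mean CPM of the E10.5 and E17.5 libraries on a log axis and its log2(CPM + 1) difference, E17.5 minus E10.5, on the vertical axis; colours mark 6 lists, the solid line the median of -0.81 and the dashed lines 2-fold. The let-7 points form the group of higher values at the abundant end and the miR-302 and miR-290 points the lowest group, and median-ratio scaling would raise abundant points by 0.95.

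The let-7 family, which represses growth genes and accumulates with differentiation, gave the main gain. Of the 9 listed 5p members (let-7a to let-7i and miR-98), 8 were at least 2-fold higher and 0 lower, with a median of 1.56 in CPM and 2.51 under the median ratio, against -0.81 and -0.10 over all miRNAs. Their sum was 9.55% of the library at E10.5, 26.5% at E14.5 and 28.1% at E17.5. The sum was 2.94-fold higher at E17.5, and 91.5% of the change had been reached at E14.5. In a bulk library, a change in the share of a cell type and a change in the RNA per cell cannot be told apart, here and below.

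let-7b-5p had 2011 CPM at E10.5, 11574 at E14.5 and 17680.2 at E17.5, 8.79-fold (8.67 to 8.92) higher. let-7f-5p had 11965 CPM at E10.5, 43832 at E14.5 and 51722 at E17.5, 4.32-fold (4.30 to 4.35) higher. let-7i-5p, the most abundant member at each stage, had 24299 CPM at E10.5, 93149 at E14.5 and 87378 at E17.5, 3.60-fold (3.58 to 3.61) higher. In let-7b-5p the highest value was at E17.5 and the step after E14.5 was still visible, while let-7i-5p was slightly lower at E17.5 than at E14.5.

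let-7a-5p had 18894 CPM at E10.5, 45568 at E14.5 and 49599 at E17.5, 2.63-fold (2.61 to 2.64) higher. let-7c-5p had 20488 CPM at E10.5, 40539 at E14.5 and 43015 at E17.5, 2.10-fold (2.09 to 2.11) higher. let-7d-5p, with 1809 CPM at E10.5, 6841 at E14.5 and 7762 at E17.5, was 4.29-fold (4.23 to 4.36) higher. All 3 had most of their gain by E14.5. let-7g-5p and miR-98-5p differed by 1.36 and 1.56 on the log2 scale.

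let-7e-5p was the member without a gain in CPM, at 10869 CPM at E10.5, 11111 at E14.5 and 10252 at E17.5. Its difference was -0.08 in CPM and turned to 0.86 under the median ratio. Counted from 1 at the 5′ end, let-7e-5p differs from let-7a-5p by U9G alone, while let-7c-5p differs by A19G and let-7f-5p by G12A. let-7e-5p was 57.5% of the let-7a-5p count at E10.5, 24.4% at E14.5 and 20.7% at E17.5, whereas let-7b-5p (A17G, A19G) was 10.6%, 25.4% and 35.6%. Members that differ by 1 base may share misassigned reads, and their assignment by the authors is not described, so single members are uncertain while the sum is not affected by exchange within the family.

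The passenger arm let-7d-3p had 473 CPM at E10.5, 1823 at E14.5 and 2250.2 at E17.5, 4.75-fold (4.61 to 4.90) higher, close to the guide arm's ratio. let-7i-3p was also higher (1.52). let-7j had 93.8 CPM at E10.5, 1053 at E14.5 and 1326 at E17.5, 14.1-fold (13.3 to 15.1) higher, and differs from let-7i-5p by G8U and 2 extra bases at the 3′ end. let-7j was 0.386% of the let-7i-5p count at E10.5, 1.13% at E14.5 and 1.52% at E17.5. Whether its counts are copies of let-7i reads with a changed base was not tested.

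**Figure D2:**
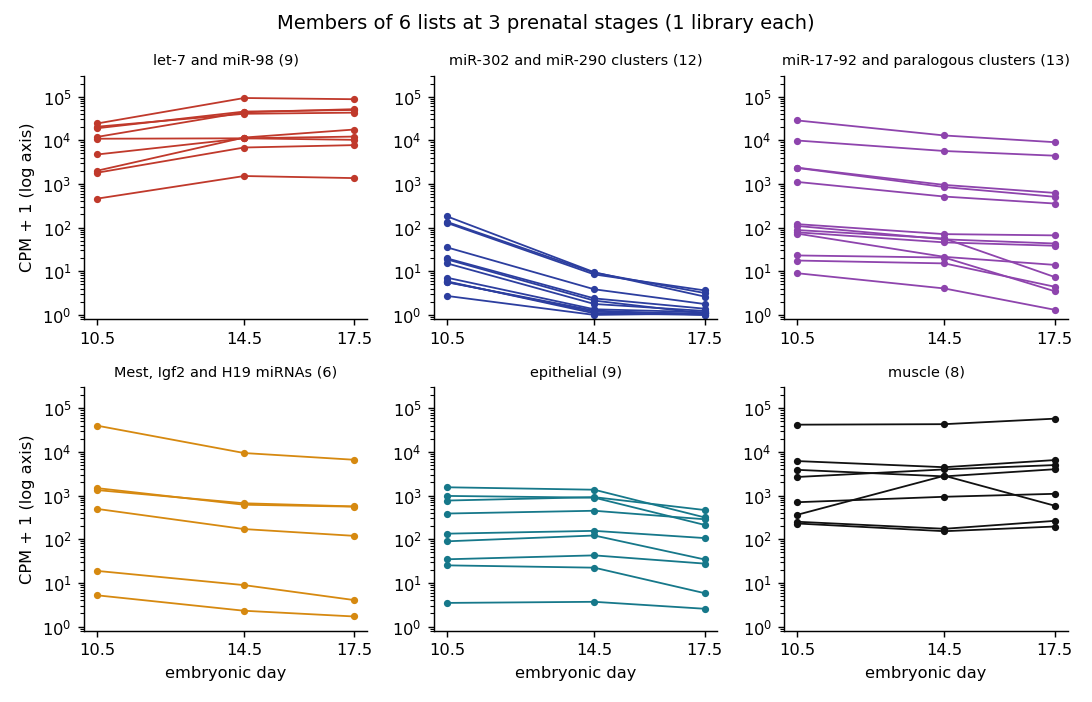
CPM + 1 on a log axis at embryonic days 10.5, 14.5 and 17.5 for each compared member of 6 lists, 1 library per stage, with lines joining the values of a miRNA and the number of members in brackets. The let-7 lines climb mainly before E14.5 in CPM, the miR-302 and miR-290 lines drop over the same span, and all 9 epithelial lines are lower at E17.5 than at E14.5.

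The miR-449 cluster, best known from ciliated epithelia and sharing its seed with miR-34, had larger ratios than the let-7 members above. miR-449a-5p was counted 21 times at E10.5, 233 at E14.5 and 1337 at E17.5, which is 2.00 CPM at E10.5, 20.2 at E14.5 and 104 at E17.5, 51.9-fold (33.8 to 84.2) higher. miR-449c-5p had 2, 28 and 84 counts, 34.3-fold (9.19 to 287) higher in CPM. miR-449a-3p had 1, 119 and 95 counts, 77.5-fold (13.6 to 3092) higher. The 3 miR-449 arms were each lowest at E10.5, where 2 of them lay under the floor.

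miR-34c-5p, with the same seed, had 209 CPM at E10.5, 92.0 at E14.5 and 144 at E17.5 and differed by -0.54 in CPM and by 0.40 under the median ratio. Of the 7 compared members of the list (11 named), 3 were higher and 1, miR-34b-3p, lower (median -0.45 in CPM and 0.40 under the median ratio). Of the 3 higher, 2 (miR-449a-3p and miR-449c-5p) had under 10 counts at E10.5 and entered through E17.5 alone. The count of higher members therefore follows in part from the inclusion rule. Among epithelial markers, the summed level of 9 miRNAs, all compared and none at 0, was 3972 CPM at E10.5, 3970 at E14.5 and 1453 at E17.5. Most of that fall was miR-183-5p (1550.1 to 316 CPM) and miR-182-5p (982 to 212 CPM). The median of the 9 was -0.72 in CPM and 0.16 under the median ratio. A link between these markers and miR-449 was not tested.

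The other higher miRNAs were of moderate or low abundance. miR-490-3p, from an intron of the muscarinic receptor gene Chrm2, had 35.6 CPM at E10.5, 51.3 at E14.5 and 74.3 at E17.5, 2.09-fold (1.85 to 2.36) higher, and its partner miR-490-5p was 4.42-fold (2.69 to 7.64) higher. miR-139-3p had 64.7 CPM at E10.5, 118 at E14.5 and 136 at E17.5, 2.10-fold (1.92 to 2.30) higher. miR-215-5p, known from gut and kidney, had 1104 CPM at E10.5, 1395 at E14.5 and 2223 at E17.5, 2.01-fold (1.97 to 2.06) higher. All 4 were highest at E17.5 and lowest at E10.5. miR-3970 and miR-3100-5p, at under 8 CPM at each stage, completed the 20 with differences of 1.81 and 1.40.

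The pluripotency-associated miR-302 and miR-290 clusters held the miRNAs with the largest lower values. Summed over all 28 named mature miRNAs, they had 550.2 CPM at E10.5, 31.5 at E14.5 and 8.25 at E17.5, which is 66.7-fold lower (55.0 to 81.6), and 95.7% of the change had been reached at E14.5. Of the 28, 12 had at least 10 counts in either library, and 8 of these 12 passed through E10.5 alone, where they were high. The count of 12 lower members (11 under the median ratio) and the median of -3.72 (-2.79 under the median ratio) therefore follow in part from the inclusion rule. The other 4 had at least 10 counts at both stages.

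miR-302b-3p had 179 CPM at E10.5, 8.50 at E14.5 and 1.63 at E17.5, 109.7-fold (71.6 to 178) lower. miR-292-5p had 134 CPM at E10.5, 8.24 at E14.5 and 2.18 at E17.5, 61.4-fold (42.3 to 92.8) lower. miR-302a-5p had 127 CPM at E10.5, 7.46 at E14.5 and 2.65 at E17.5, 47.9-fold (34.1 to 69.4) lower. All 3 were highest at E10.5, lowest at E17.5 and above the floor at each stage. miR-302d-3p was 43.9-fold (23.6 to 92.3) lower and miR-293-3p 48.1-fold (20.2 to 149.7) lower.

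The counts of miR-302a-3p were 185 at E10.5, 13 at E14.5 and 1 at E17.5, and those of miR-293-5p 148, 9 and 3. For these the ratios of 227-fold (40.2 to 9007) and 60.5-fold (20.3 to 297) rest on the few counts at E17.5. miR-294-3p had 48 counts and miR-302c-3p 51 at E10.5 and both had 0 at E17.5. In the whole comparison, 14 miRNAs had 0 counts at E17.5 and 1, miR-6923-5p, had 0 at E10.5 and 11 at E17.5.

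The miR-17-92 cluster and its paralogues, known for promoting proliferation and needed for heart growth in mice, were lower as a group. Of 13 members, 12 were at least 2-fold lower in CPM (92.3%, against 40.5% of all miRNAs) and 0 higher (median -1.92). Under the median ratio 6 were lower (median -0.97). 1 of the 13 had under 10 counts at E17.5. The list held 4.47% of counts at E10.5, 2.12% at E14.5 and 1.52% at E17.5.

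miR-17-5p had 2361 CPM at E10.5, 949.8 at E14.5 and 623 at E17.5, 3.79-fold (3.69 to 3.89) lower. miR-20a-5p had 2327 CPM at E10.5, 848 at E14.5 and 508 at E17.5, 4.58-fold (4.46 to 4.71) lower. miR-92a-3p, the most abundant member, had 28522 CPM at E10.5, 12903 at E14.5 and 9057 at E17.5, 3.15-fold (3.13 to 3.17) lower. Each of these was lower at each later stage. miR-363-3p, of the X-linked paralogous cluster, had 86.8 CPM at E10.5, 55.4 at E14.5 and 6.38 at E17.5, 13.6-fold (10.8 to 17.3) lower, so that most of its loss came after E14.5.

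Grouped by sequence, the 12 compared miRNAs with AAGUGC inside the seed, a motif chosen after the values were seen, were all at least 2-fold lower in CPM (median -2.09), and 7 were lower under the median ratio (median -1.18), but 3 of them had under 10 counts at E17.5 and entered through E10.5 alone. Their sum was 6207 CPM at E10.5, then 2423 and 1549 at the later stages. Summing the miRNAs that have a RefSeq sequence by their 7-base seed gave 540 families, 10 of them at least 2-fold higher (1.85%) and 233 lower (43.1%), around a median of -0.85. The GAGGUAG family of let-7 gained most, from 95531 to 280953 CPM. The CAGUGCA family of miR-148 and miR-152 went from 54412 to 70874 CPM. These sums leave out miRNAs without a sequence entry, among them miR-30d-5p and miR-30b-5p, and the list of 5 miR-30 members, counted by name, went from 66511 to 85249 CPM.

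The UUUUCAU family, which is miR-335-3p alone, lost most. The AUUGCAC family of miR-25, miR-32, miR-92 and miR-363 was next, with 38829 CPM at E10.5, 18786 at E14.5 and 13848 at E17.5. Its members did not move alike. miR-92b-3p, from a locus of its own on chromosome 3, had 259 CPM at E10.5, 90.1 at E14.5 and 289 at E17.5 and differed by 0.16, while miR-25-3p had 9893 CPM at E10.5, 5687 at E14.5 and 4441 at E17.5 and differed by -1.16. The seed of miR-196 (AGGUAGU) and that of let-7 (GAGGUAG) share the letters AGGUAG, which lie 1 base nearer the 5′ end in miR-196.

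The imprinted Dlk1-Dio3 domain on chromosome 12 carries a large miRNA cluster, transcribed from the maternal chromosome. Of its 90 compared members (111 named), 67 were at least 2-fold lower and 0 higher in CPM (median -1.58), and 27 were lower and 2 higher under the median ratio (median -0.66). The cluster held 10.3% of counts at E10.5, 5.78% at E14.5 and 4.43% at E17.5. In CPM 74.4% were thus lower, against 40.5% of all miRNAs, and among the 81 members with at least 10 counts at both stages 61 were lower (median -1.60).

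miR-540-3p, the Dlk1-Dio3 member that the series title places with the long non-coding RNA Cmarr, had 187 CPM at E10.5, 60.2 at E14.5 and 37.7 at E17.5. It was 4.95-fold (4.48 to 5.48) lower, with a log2 difference of -2.28 in CPM and -1.34 under the median ratio. miR-323-3p had 2351 CPM at E10.5, 565 at E14.5 and 309 at E17.5, 7.61-fold (7.36 to 7.87) lower. miR-758-3p had 156 CPM at E10.5, 25.0 at E14.5 and 13.7 at E17.5, 11.4-fold (9.76 to 13.4) lower. The largest part of each loss had occurred by E14.5, and each was lower again at E17.5.

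Members of the cluster differed widely. miR-410-5p had 96.1 CPM at E10.5, 10.4 at E14.5 and 6.38 at E17.5, and miR-370-3p was 4.72-fold (4.65 to 4.80) lower. miR-127-3p, the most abundant member, had 18045 CPM at E10.5, 13104 at E14.5 and 11609 at E17.5 and differed by -0.64, which turned to 0.31 under the median ratio. miR-136-5p and miR-668-3p, at 0.21 and 0.13, were the 2 members above 0 in CPM. By position, the stretches from miR-770 to miR-136, from miR-341 to miR-370 and from miR-379 to miR-3072 had 15 of 21, 5 of 6 and 44 of 59 placed members lower, with medians of -1.43, -2.19 and -1.59. Some compared members, among them miR-376c-3p and miR-485-5p, were not placed and are not in these counts.

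miRNAs of other imprinted loci were also lower. All 6 miRNAs of Mest (miR-335), Igf2 (miR-483) and H19 (miR-675) were at least 2-fold lower in CPM (median -1.83), against 40.5% of all miRNAs. Of the 6, 3 were also lower under the median ratio (median -0.99), and 1 had under 10 counts at E17.5. Their share went from 4.34% to 1.09% and 0.79% of counts. miR-335-3p had 40031 CPM at E10.5, 9440.4 at E14.5 and 6614 at E17.5, 6.05-fold (6.01 to 6.10) lower, the largest loss of CPM of any single miRNA. miR-483-3p had 495 CPM at E10.5, 170.1 at E14.5 and 119 at E17.5, 4.18-fold (3.94 to 4.42) lower. miR-335-5p, which was 3.23% of its hairpin's counts at E10.5, 6.59% at E14.5 and 7.86% at E17.5, was 2.37-fold (2.30 to 2.44) lower.

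The multi-copy Sfmbt2 cluster, known from placenta and embryonic stem cells, had 14 of 32 compared members lower in CPM (79 named), a share of 43.8% that was close to the 40.5% of all miRNAs, and 0 under the median ratio. Its median was -0.93 in CPM and -0.27 under the median ratio, and 8 of the 32 had under 10 counts at E17.5. Near-identical copies make its single members uncertain.

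Of 8 compared miRNAs that lie within Hox gene clusters, which pattern the body axis, 6 were lower in CPM (median -1.53). That is 75%, against 40.5% of all miRNAs. Under the median ratio 3 were lower and 1 higher (median -0.76). Of the 8, 1 had under 10 counts at E17.5. miR-615-3p had 172 CPM at E10.5, 44.6 at E14.5 and 18.9 at E17.5, 9.11-fold (7.96 to 10.5) lower. miR-196a-5p had 24.2 CPM at E10.5, 2.26 at E14.5 and 1.40 at E17.5, 17.3-fold (10.7 to 29.7) lower, and miR-196b-5p was 6.13-fold (4.88 to 7.78) lower. miR-10a-5p, near the anterior HoxB genes, had 7674 CPM at E10.5, 4404 at E14.5 and 3726 at E17.5, whereas miR-10b-5p, near the HoxD genes, had 2302 CPM at E10.5, 3300.0 at E14.5 and 3825 at E17.5 and was 1.66-fold (1.64 to 1.69) higher. These miR-10 relatives, well apart at E10.5, had almost equal levels at E17.5. The miR-10a-5p difference was -1.04, against a median of -0.81 over all miRNAs. Both share a seed, and how reads of similar miRNAs were assigned is not described, so their single values are uncertain. Their summed seed family had 9976 CPM at E10.5, 7704 at E14.5 and 7551 at E17.5.

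Muscle miRNAs changed little in CPM. Of 8 members, 0 were at least 2-fold higher or lower in CPM (median 0.27), and 6 were higher under the median ratio (median 1.21). Their share of the library was 5.65% at E10.5, 5.86% at E14.5 and 7.56% at E17.5. All 8 were detected at each stage. miR-1a-3p had 42165 CPM at E10.5, 43298 at E14.5 and 57890.5 at E17.5, 1.37-fold (1.37 to 1.38) higher. miR-499-5p, from the intron of a slow myosin gene (Myh7b), had 2670.0 CPM at E10.5, 3979.7 at E14.5 and 5007 at E17.5, 1.88-fold (1.85 to 1.90) higher, the largest ratio of the list.

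miR-208b-3p, which lies in the beta myosin heavy chain gene, had 704 CPM at E10.5, 939 at E14.5 and 1098 at E17.5, 1.56-fold (1.52 to 1.60) higher. miR-208a-3p, from the alpha myosin heavy chain gene, had 229 CPM at E10.5, 152 at E14.5 and 195 at E17.5 and was the single member lower in CPM, with a log2 difference of -0.23 that turned to 0.71 under the median ratio. miR-206-3p, a miRNA mainly of skeletal muscle, had 363 CPM at E10.5, 2848 at E14.5 and 586 at E17.5, with its highest value at E14.5.

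miRNAs that mark other cell types of the heart were close to the overall shift or above it. The 8 miRNAs of fibroblasts and smooth muscle had 0 at least 2-fold different (median -0.54 in CPM, 0.41 under the median ratio), and summed to 17.7%, 15.0% and 14.3% of counts in stage order. The 5 endothelial miRNAs also had 0 (median 0.04 and 0.98), at 2.19%, 2.15% and 2.25% of counts, among them miR-126a-3p with 20957 CPM at E10.5, 20571 at E14.5 and 21486 at E17.5. The 8 blood cell miRNAs had 1 lower, miR-155-5p (median -0.39 and 0.49), and summed to 433.6, 360.3 and 328.9 CPM. No marker of these 3 lists was at 0 in any of the 3 libraries.

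**Figure D3:**
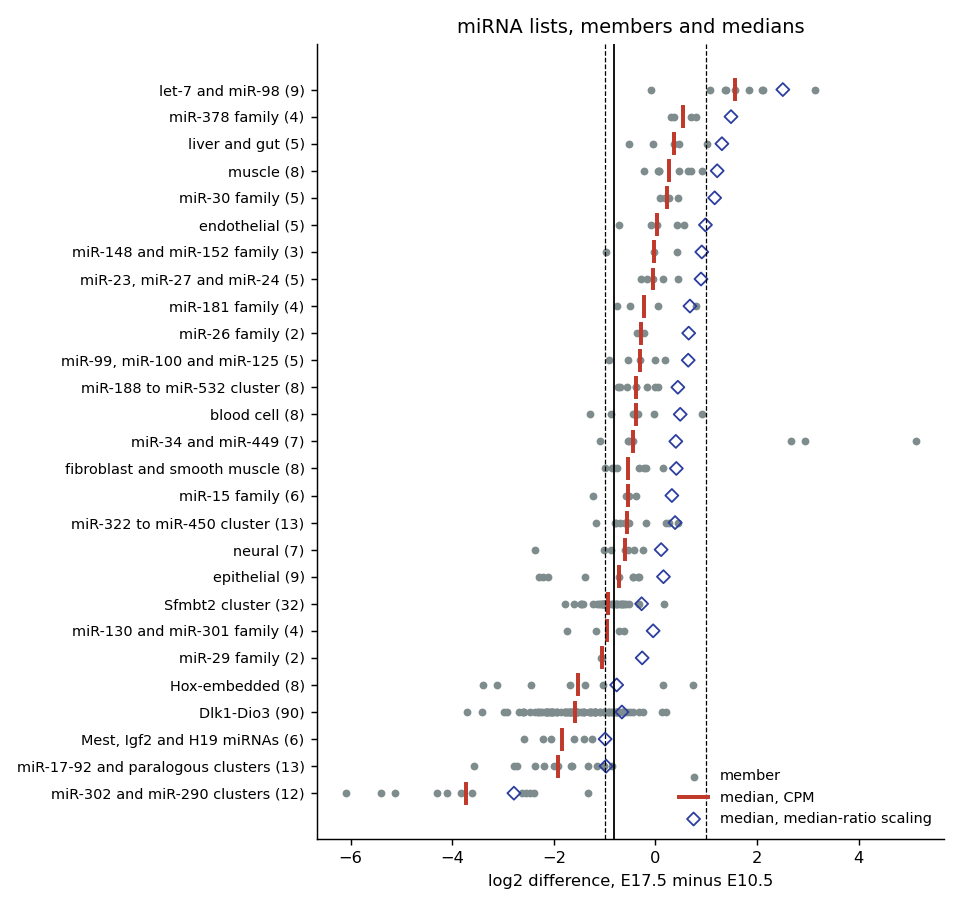
Log2(CPM + 1) difference, E17.5 minus E10.5, for the compared members of 27 miRNA lists (points), with the list's median in CPM (bar) and under median-ratio scaling (diamond), the median of all miRNAs of -0.81 (solid line) and 2-fold (dashed lines). The let-7 list lies highest and the miR-302 and miR-290 list lowest in both scalings, while the medians of 13 lists have the other sign under the median ratio.

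The miR-99, miR-100 and miR-125 list, several members of which share transcripts with let-7, had 0 of 5 past the limit in CPM (median -0.30 in CPM and 0.64 under the median ratio, the order used for the medians below), and its share went from 8.16% to 6.80% and 5.85%. The miR-30 family, abundant in differentiated heart muscle, had 0 of 5 past the limit in CPM (median 0.22) and 5 higher under the median ratio (median 1.17). The miR-29 family, regulators of collagen genes, had both compared members of 3 lower in CPM (median -1.06), against 40.5% of all miRNAs. Under the median ratio 0 were lower (median -0.26). miR-29a-3p had 77.4 CPM at E10.5, 38.0 at E14.5 and 36.1 at E17.5, with the loss complete by E14.5.

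The miR-15 family had 1 of 6 lower (16.7%, median -0.55 and 0.32), and the miR-130 and miR-301 family 2 of 4 (50%, median -0.95 and -0.05). Over all miRNAs 40.5% were lower in CPM. No member passed the limit in CPM in the miR-26 family (2 members, median -0.29 and 0.65), miR-23 with miR-27 and miR-24 (5 members, -0.05 and 0.90), the miR-181 family (4 members, -0.23 and 0.68), the miR-148 and miR-152 family (3 members, -0.04 and 0.91) and the miR-378 family (4 members, 0.54 and 1.49). The miR-148 and miR-152 family gained share nonetheless, from 5.44% to 6.76% and 7.09%, through miR-148a-3p with 49982 CPM at E10.5, 63906 at E14.5 and 67398 at E17.5. The X-linked miR-322 to miR-450 cluster had 1 of 13 lower (median -0.55 and 0.39), and the X-linked miR-188 to miR-532 cluster 0 of 8 (median -0.38 and 0.44).

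In the epithelial list, 4 of 9 members were lower in CPM (44.4%, against 40.5% of all miRNAs), and the median of -0.72 in CPM and 0.16 under the median ratio lay close to that of all miRNAs. The 4 are the miR-183 cluster and miR-205-5p. In CPM all 9 members were lower at E17.5 than at E14.5. miR-183-5p had 1550.1 CPM at E10.5, 1363 at E14.5 and 316 at E17.5, 4.91-fold (4.74 to 5.08) lower. miR-182-5p had 982 CPM at E10.5, 896 at E14.5 and 212 at E17.5, 4.63-fold (4.44 to 4.83) lower. miR-96-5p, of the same cluster, had 24.2 CPM at E10.5, 21.3 at E14.5 and 4.83 at E17.5. All 3 were level between E10.5 and E14.5 and lower at E17.5. miR-205-5p, with 88.7 CPM at E10.5, 121 at E14.5 and 33.5 at E17.5, was also lowest at E17.5. miR-200b-3p, of another epithelial cluster, had 769.5 CPM at E10.5, 921 at E14.5 and 467 at E17.5 and differed by -0.72 in CPM and 0.23 under the median ratio.

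Markers of other organs were present at each stage. The neural list (10 named) had 2 of 7 compared members lower (28.6%, against 40.5% of all miRNAs), with a median of -0.60 and 0.11. The liver and gut list had 1 of 5 higher, miR-215-5p (median 0.37 and 1.31). miR-122-5p, the main liver miRNA, had 894 CPM at E10.5, 118 at E14.5 and 619 at E17.5, so that its level at E14.5 lay below both other stages. Its difference of -0.53 in CPM turned to 0.42 under the median ratio. The part of such markers in the differences was not tested.

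**Figure D4:**
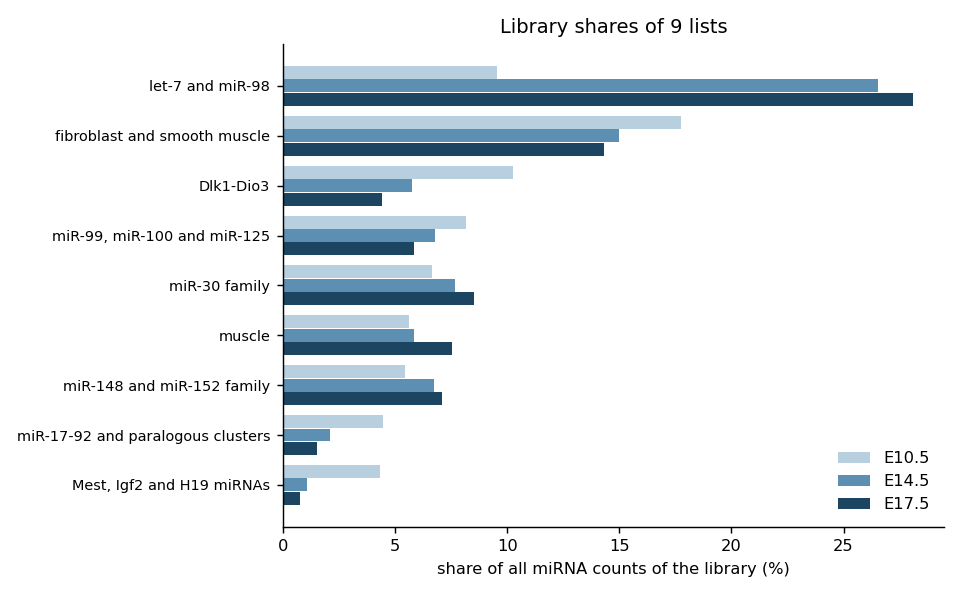
Share of all miRNA counts of the library, in percent, held by 9 lists at E10.5, E14.5 and E17.5 (bars, 1 library per stage). The let-7 list grows from 9.55% to 28.1%, while the Dlk1-Dio3 list goes from 10.3% to 4.43% and the miR-17-92 list from 4.47% to 1.52%.

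E14.5 lay between both ends, or within 2-fold of one of them, for nearly all miRNAs. Of the 425 miRNAs with at least 100 counts at any of the 3 stages, 3 were at least 2-fold above both other stages at E14.5 (miR-128-2-5p, miR-206-3p and miR-375-3p) and 3 at least 2-fold below them (miR-122-5p, miR-92b-3p and miR-92b-5p). miR-375-3p, an endocrine and gut miRNA, had 93.6 CPM at E10.5, 272 at E14.5 and 129 at E17.5.

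The arms of a hairpin mostly moved together. Of 103 hairpins in which each arm had at least 100 counts in either library, 36 had both arms at least 2-fold lower, 2 had both higher, 20 had 1 arm lower and 0 had arms that moved 2-fold in opposite directions. Of their 206 arms, 92 were lower (44.7%), close to the 40.5% of all miRNAs. As 2.63% of all miRNAs were at least 2-fold higher, opposite arms could hardly occur, and their absence is no support. The median shift between arms was 0.38 log2 units, and 14 hairpins had a shift of at least 1. Among the 14, miR-302a rests on 34 and 1 counts at E17.5, and its 5p share rose from 87.8% to 97.1%. The more abundant arm was the same at both stages in 99 and differed in 3 (miR-144, miR-329 and miR-139), and in 1, miR-1933, the arms had equal counts at E10.5. In miR-23b the 5p arm was 22.7% of the hairpin's counts at E10.5, 7.17% at E14.5 and 6.46% at E17.5. In miR-27a, from the paralogous cluster, it was 40.4%, 20.1% and 17.1%, and in miR-27b 4.86%, 2.52% and 1.88%. In all 3 the 5p arm lost share, as it did in miR-410 (16.5%, 5.30% and 4.84%) and miR-301b (81.9%, 59.6% and 53.0%). In the erythroid miR-144 it went from 65.2% to 49.2% and 41.6%.

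**Figure D5:**
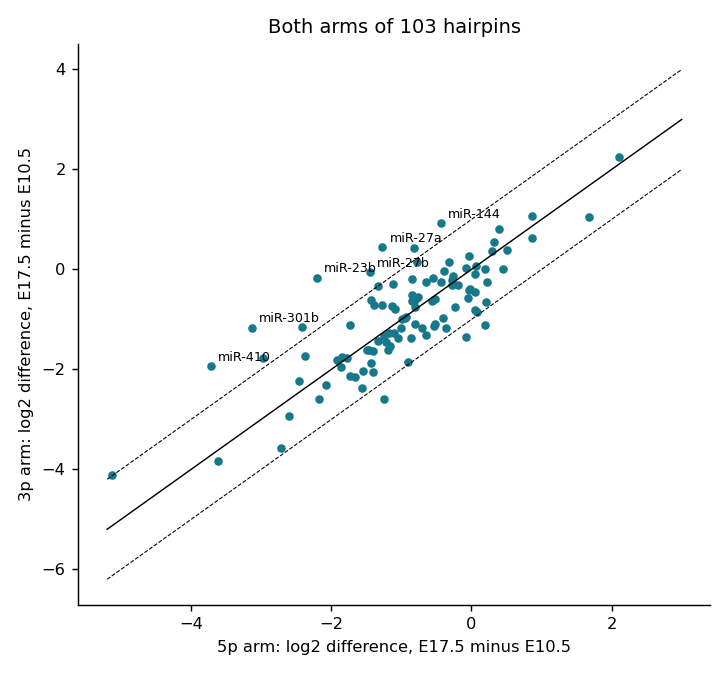
Log2(CPM + 1) difference, E17.5 minus E10.5, of the 5p arm (horizontal) and of the 3p arm (vertical) for the 103 hairpins with at least 100 counts in each arm in either library; the solid line marks equal differences and the dashed lines a shift of 1 between arms. Points above the solid line are hairpins whose 5p arm had the lower difference, which mostly goes with a lost 5p share. With few counts it need not, as in miR-302a, above the line, whose 5p share rose from 87.8% to 97.1%. The 6 hairpins with the largest shifts, all above the line, are named.

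By genome position, 43 groups of miRNAs lay within 10 kb of each other. Groups count placed miRNAs only and can lack compared members, as the miR-291a group lacks miR-292-5p. In 7 groups all members were at least 2-fold lower: miR-302b to miR-302d, miR-291a to miR-295, miR-182 to miR-183, miR-130b to miR-301b, miR-25 to miR-106b, miR-296 to miR-298 and miR-29a to miR-29b. All 5 members of the miR-291a group had under 10 counts at E17.5, as had 1 each of the miR-302b and miR-182 groups. Counting these 7, 26 groups had at least 1 lower member, 6 had at least 1 higher member, 1 group had both, and in 12 no member was 2-fold different. Of all miRNAs, 40.5% were lower and 2.63% higher, so a lower member in many groups is no finding. miRNAs with several loci, such as miR-29b-3p and miR-92a-3p, count in more than 1 group. Sequence was available for 635 of the 761 miRNAs. Median GC content was 45.5% for the 19 higher, 50% for the 349 in neither class and 52.2% for the 267 lower miRNAs with a sequence. Of these, 57.9%, 44.1% and 37.5% began with U. Many of the 19 are near-identical let-7 family sequences, so their values describe that family in large part. Of the 208 miRNAs numbered 1900 or above, which are mostly rare, 72 were lower and 2 higher (median -0.75), against 236 and 18 of the other 553 (median -0.85).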

How the data were processed

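Small RNA was sequenced from heart tissue, 1 library per stage. The RNA of 18 to 30 nucleotides was gel-selected and ligated to adapters carrying unique molecular identifiers, per the labels' protocols. The deposited table holds raw counts per mature miRNA, as whole numbers that sum to different library totals, and the sources do not say whether reads or identifiers were counted. The submitters' processing notes name HISAT, HISAT2, Bowtie, Bowtie2, RSEM and mm9, with no role or version. The long RNA table was not used here.

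CPM were computed from each library's total (Python 3.11.15, pandas 2.3.3), and differences were taken as log2(CPM + 1) where either library had at least 10 counts. Median-ratio scaling used the 5 small RNA libraries, and trimmed-mean scaling used edgeR 4.0.16, without its count test, since there were no replicates. A 2-fold limit was a rule of size, not a test. Ratios carry 95% Clopper-Pearson intervals, given the sum of the pair of counts (SciPy 1.17.1). Scripts were tested on simulated data. The labels give no batch.

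Seeds and sequences are from RefSeq (GRCm38.p6), matched by name for 635 of 761 miRNAs, and no sequence is shown for a miRNA without an entry. Named miRNAs, with at least 100 counts in either library, were the 12 largest and 12 smallest differences, the 10 most abundant, miR-540-3p, up to 4 members of each of 27 lists, all muscle and let-7 members, the 6 hairpins with the largest arm shifts and the 5 seed families with the largest gain or loss. Other named miRNAs were chosen after their values were seen, among them all 20 higher miRNAs, miR-127-3p, miR-136-5p, miR-668-3p, miR-34c-5p, miR-10b-5p, miR-92b-3p and those whose E14.5 level lay outside both other stages. The members and the lists were chosen with earlier results of these data known.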

Additional observations from a re-analysis of the deposited data

How the results depend on the processing

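No paired analysis was possible because each stage had 1 library, and for the same reason no replicate could be left out. The main values are 20 higher, 308 lower and a median of -0.81. No result past the 2-fold limit reversed. The scalings moved differences of abundant miRNAs by at most 1.01 log2 units, so a reversal could hardly occur and its absence is no support. Scaling moved all 3 values: 93 higher and 85 lower (median -0.10) under the median ratio over 5 libraries, 106 and 94 with -0.074 under the median ratio of both libraries alone, and 97 and 103 with -0.13 under edgeR's trimmed mean. Unscaled counts gave 50 higher. Leaving the 10 most abundant miRNAs out of the total gave 46 higher and a median of -0.57, and leaving out the let-7 and miR-98 list, an alternative chosen after seeing the data, gave 34 and -0.62. Leaving out the Dlk1-Dio3 list kept all 3 values within the limits used. A pseudocount of 0.1 gave 32 higher and a median of -1.07, and one of 5 gave 177 lower and -0.41. With no filter the median was -0.40, and with at least 100 counts 198 were lower with a median of -0.92. A 4-fold limit left 8 higher and 75 lower. Under the median ratio over 5 libraries, 50 of 146 lists and miRNAs changed sign, 13 lists among them. None of the 50 had reached 2-fold in CPM, as the shift of 0.95 is below the log2 limit of 1. Pseudocounts and filters changed no sign, which for single miRNAs is fixed by the arithmetic and is no support. Low counts limit the rare miRNAs: below 10 CPM the pseudocount sets much of a difference, and values under 3 counts are under the floor. Differences between embryos of 1 stage cannot be told apart from differences between stages.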
